A study of Mus musculus with 6 samples.

Results

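The blood vessel wall of mouse skin was followed through 10 genes: 9 that mark blood endothelial cells (Kdr, Flt1, Tek, Tie1, Pecam1, Cdh5, Emcn, Egfl7 and Vwf) and Car4, a carbonic anhydrase of the capillary surface. The genes were chosen by name, with their clodrosome and encapsome levels already known, so those levels are given as a description and no test is reported for any of the 10. All 10 symbols were found among the 55487 genes of the deposited count table, each under 1 identifier, and all 10 passed the filter on low counts. Polyadenylated RNA of whole dorsal skin from day 2 had been sequenced. Skin of 3 libraries had received DPCP (diphencyprone, a contact sensitizer painted on skin to provoke an allergic reaction) with clodrosome (spelled Codrosome in the sample titles), liposomes filled with clodronate that kill the phagocytes which swallow them. Skin of the other 3 libraries had received DPCP with encapsome, the same kind of liposome without the drug. Both groups therefore carried DPCP and liposomes, and skin without DPCP was not analysed here. Strain, age and sex of the mice, and the number of animals behind each library, are not given in the sources used here, so each p-value reflects the spread among these libraries alone.

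Blood endothelial cells line the vessels, and a small set of surface proteins sets them apart. KDR and FLT1 bind vascular endothelial growth factors, TEK binds angiopoietins with TIE1 as its partner, VE-cadherin (Cdh5) and PECAM1 hold neighbouring cells together, and von Willebrand factor is stored for release when a vessel is injured. In skin these vessels feed the hair follicle and admit leukocytes during an allergic reaction. RNA of whole skin cannot separate more endothelial cells from more RNA per cell.

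Total counts were between 26649396 and 35566351 in 5 libraries and 116965654 in clodrosome library A. The letters A, B and C only name libraries within a group. Of 17988 genes tested, 4035 (22.4%) passed edgeR's quasi-likelihood test at an adjusted p under 0.05, and 9.41% were higher and 13.0% lower in clodrosome skin. The median log2 fold change of all tested genes was 0.01. The higher calls depended on single libraries: 1692 genes were called higher with all libraries, against 933 without clodrosome C and 1122, 821 and 938 without encapsome A, B and C. The macrophage genes Adgre1, Mrc1 and Cd68 averaged 90.7 ± 25.7, 260 ± 113 and 98.2 ± 27.2 CPM in clodrosome skin, against 242 ± 28.0, 1021 ± 90.1 and 398 ± 90.0 CPM in encapsome skin (SD, n = 3 each; edgeR FDR-adjusted p = 8.58e-04, 0.00166 and 3.40e-04). All 9 endothelial genes were at 18.8 CPM or more in every library, and the epidermal keratin gene Krt14 averaged 15682 CPM in clodrosome skin and 12440 CPM in encapsome skin. CPM are counts scaled to library size with TMM, a correction for library composition. The share of counts in rRNA genes was 0.334% to 0.481% in encapsome A and clodrosome A and C, and 0.788% to 0.845% in clodrosome B, encapsome B and encapsome C.

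The 4 windows below show the 250 bases upstream of the RefSeq start of Car4, the gene with the widest difference of the 10, of Emcn, the widest among the 9 endothelial genes, and of the receptors Kdr and Flt1, which share a ligand and whose log2 fold changes were 0.46 and 0.10. Sequences are from RefSeq on GRCm38.p6, a patch of the GRCm38 assembly of the deposited table. The windows lie at chr11:84957504-84957753 (plus strand) for Car4, chr3:137340828-137341077 (plus strand) for Emcn, chr5:75978456-75978705 (minus strand) for Kdr and chr5:147726012-147726261 (minus strand) for Flt1. Capitals mark matches, on either strand, to AGGAAG (a core bound by ETS factors), to CGGAAG (the same with a CpG), to TATAAA, the box that TBP binds, and to GGGCGG, the box that SP1 binds.
Car4: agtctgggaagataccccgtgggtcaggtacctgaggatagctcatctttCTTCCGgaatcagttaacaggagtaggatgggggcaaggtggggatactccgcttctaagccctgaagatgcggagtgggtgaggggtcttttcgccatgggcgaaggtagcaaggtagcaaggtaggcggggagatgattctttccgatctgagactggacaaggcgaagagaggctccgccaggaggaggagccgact
Emcn: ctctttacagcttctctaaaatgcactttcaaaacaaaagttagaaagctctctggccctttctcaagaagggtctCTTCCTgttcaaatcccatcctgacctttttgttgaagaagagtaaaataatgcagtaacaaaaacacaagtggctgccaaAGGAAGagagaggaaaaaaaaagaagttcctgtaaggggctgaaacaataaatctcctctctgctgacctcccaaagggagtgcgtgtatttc
Kdr: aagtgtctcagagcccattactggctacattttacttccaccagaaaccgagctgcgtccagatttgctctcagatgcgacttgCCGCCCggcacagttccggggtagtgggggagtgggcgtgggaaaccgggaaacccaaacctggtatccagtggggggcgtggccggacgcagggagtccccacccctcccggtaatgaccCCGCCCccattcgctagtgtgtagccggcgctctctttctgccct
Flt1: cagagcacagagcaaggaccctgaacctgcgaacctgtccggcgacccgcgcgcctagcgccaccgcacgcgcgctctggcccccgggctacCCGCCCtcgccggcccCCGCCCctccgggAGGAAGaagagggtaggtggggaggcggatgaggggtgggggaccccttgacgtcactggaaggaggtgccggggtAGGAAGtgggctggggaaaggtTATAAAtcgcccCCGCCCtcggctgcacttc
RefSeq gave 9 such windows for 7 of the 10 genes, with 3 for Egfl7. AGGAAG was present in 5 of the 9 windows and in 29.5% of all 32851 windows of this length. CGGAAG was present in 2 of the 9, those of Tie1 and Car4, against 13.6% of all. The 2 ETS cores differ in their first letter and cannot match at the same place. TATAAA was present in 1 of the 9, that of Flt1, against 12.4% of all, and GGGCGG in 3 of the 9, those of Kdr, Flt1 and 1 start of Egfl7, against 32.7% of all. A match is a string of letters and not a bound site.

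Across the 9 endothelial genes every log2 fold change was above 0, with a median of 0.35, and 5 of the 9 had every clodrosome library above every encapsome library. With Car4 the count was 6 of 10 (Kdr, Tie1, Pecam1, Emcn, Egfl7 and Car4). Over all tested genes the groups did not overlap for 40.2%, with every clodrosome library higher for 19.5% and lower for 20.7%. Because the genes were picked with this comparison in view, nothing is read from these counts. The geometric mean TPM of the 9 genes (a transcript abundance that corrects for gene length) was 22.5, 21.7 and 24.7 in clodrosome libraries A, B and C, against 16.5, 18.7 and 17.0 in encapsome libraries A, B and C. No clodrosome library lay in the encapsome range for this summary. On the lower side of the rRNA split the log2 differences of the 9 genes ran from 0.04 (Vwf) to 0.78 (Pecam1), and on the higher side from 0.01 (Tek) to 0.74 (Emcn). Encapsome A is the only encapsome library on the lower side, and clodrosome B the only clodrosome library on the higher side.

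**Figure D1:**
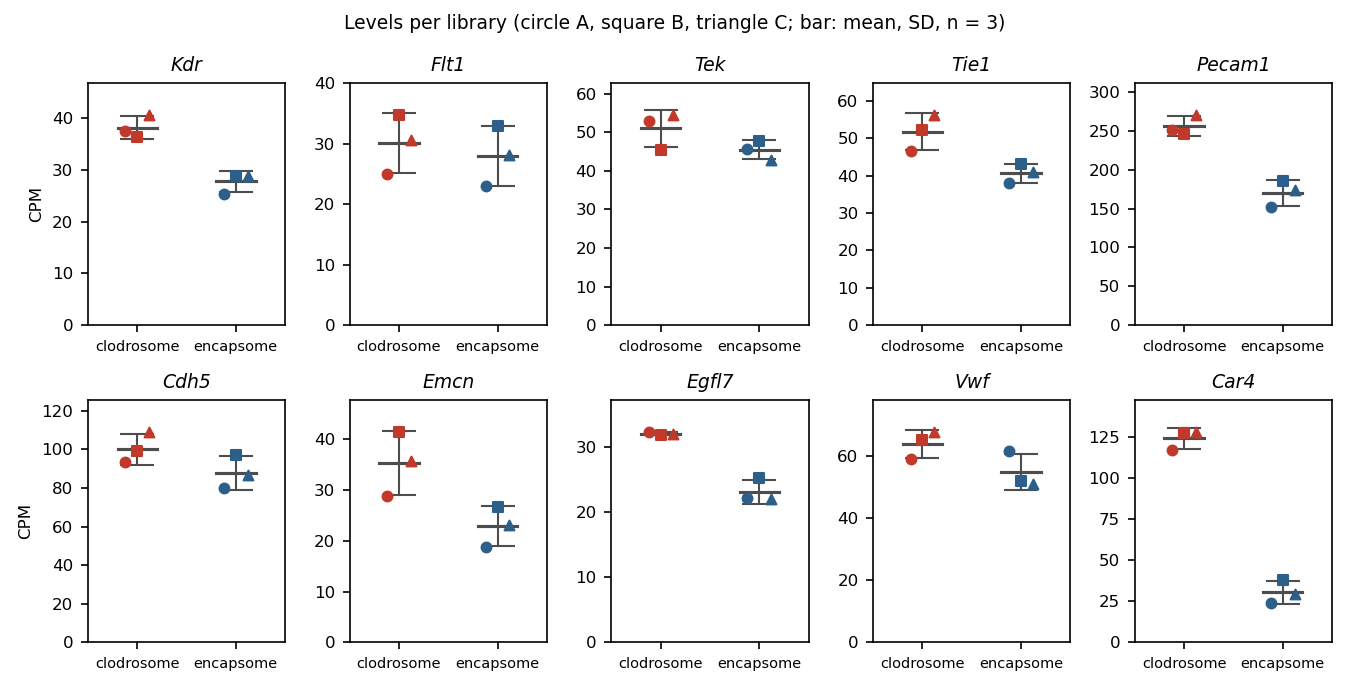
Level of each of the 10 genes in CPM (linear axis from 0) in the 3 clodrosome and 3 encapsome libraries, with the mean and SD of each group. The groups are apart for Kdr, Tie1, Pecam1, Emcn, Egfl7 and Car4 and overlap for Flt1, Tek, Cdh5 and Vwf.

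The 4 receptor kinases gave log2 fold changes from 0.10 to 0.46. Kdr, the main signalling receptor for VEGF-A (chromosome 5, 75932827 to 75978458, minus strand, GRCm38), stood at 37.6, 36.4 and 40.7 CPM in clodrosome libraries A, B and C, against 25.4, 28.9 and 28.9 CPM in encapsome libraries A, B and C. All clodrosome values lay above all encapsome values, and the log2 fold change was 0.46 ± 0.0854 (SE). Flt1, which binds VEGF-A tightly and also gives a soluble decoy form (chromosome 5, 147561604 to 147726011, minus strand), stood at 25, 34.8 and 30.6 CPM with clodrosome, against 23.0, 32.9 and 28.2 CPM with encapsome. Its groups overlapped almost fully, with a log2 fold change of 0.10 ± 0.150 (SE) that was -0.03 without encapsome A, and gene counts cannot separate the soluble from the membrane form. The ratio of Flt1 to Kdr in TPM averaged 0.529 ± 0.0996 with clodrosome and 0.672 ± 0.0795 with encapsome (SD, n = 3 each), with overlapping libraries. Tek, the angiopoietin receptor TIE2 (chromosome 4, 94739289 to 94874976, plus strand), stood at 53.0, 45.5 and 54.6 CPM with clodrosome, against 45.8, 47.8 and 42.8 CPM with encapsome. Clodrosome B lay among the encapsome libraries, and the log2 fold change was 0.17 ± 0.0887 (SE). Tie1, the orphan partner of TIE2 (chromosome 4, 118471191 to 118490061, minus strand), stood at 46.5, 52.2 and 56.3 CPM with clodrosome, against 37.9, 43.0 and 40.9 CPM with encapsome. Its groups were apart, with a log2 fold change of 0.35 ± 0.0911 (SE). The ratio of Tie1 to Tek averaged 0.976 ± 0.130 with clodrosome and 0.857 ± 0.0626 with encapsome (SD, n = 3 each), again with overlap.

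The junction proteins and the surface mucin gave log2 fold changes from 0.19 to 0.62. Pecam1, an adhesion molecule of endothelial cells that platelets and leukocytes also carry (chromosome 11, 106654217 to 106750628, minus strand), stood at 251, 246 and 271 CPM with clodrosome, against 152, 185 and 174 CPM with encapsome. The groups were well apart, with a log2 fold change of 0.59 ± 0.0896 (SE). Cdh5, the cadherin of endothelial adherens junctions (chromosome 8, 104101625 to 104144511, plus strand), stood at 93.2, 99.0 and 109 CPM with clodrosome, against 79.7, 96.8 and 86.6 CPM with encapsome. Encapsome B exceeded clodrosome A, and the log2 fold change was 0.19 ± 0.0926 (SE). Emcn, the sialomucin endomucin of capillaries and veins (chromosome 3, 137341067 to 137432185, plus strand), stood at 28.9, 41.5 and 35.8 CPM with clodrosome, against 18.8, 26.7 and 23.2 CPM with encapsome. Its log2 fold change was 0.62 ± 0.155 (SE), although clodrosome A lay only just above encapsome B.

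The 2 secreted proteins were apart between groups for Egfl7 and overlapped for Vwf. Egfl7, a matrix protein that vessels lay down (chromosome 2, 26580014 to 26593120, plus strand), stood at 32.3, 31.8 and 32.0 CPM with clodrosome, against 22.1, 25.2 and 22 CPM with encapsome. The clodrosome libraries were almost identical, and the log2 fold change was 0.47 ± 0.0829 (SE). Exons of other genes covered 11.2% of its exonic bases and were left out of its count. Among them is Mir126a, whose endothelial microRNA is shown because it shares the Egfl7 locus. Reads over bases that Mir126a and Egfl7 share were counted for neither gene. The Mir126a row held 0 counts in each of the 6 libraries, in an assay of long polyadenylated RNA that does not measure mature microRNAs. Its mature form at chr2:26591402-26591423 (plus strand, RefSeq, GRCm38.p6), with the seed of bases 2 to 8 in capitals, shares that seed with no other of the 1738 mature mouse entries.
mmu-miR-126a-3p: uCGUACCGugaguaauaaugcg
Vwf, the clotting protein of endothelial storage granules and platelets (chromosome 6, 125546774 to 125686679, plus strand), stood at 59.0, 65.3 and 67.8 CPM with clodrosome, against 61.7, 52.0 and 51.1 CPM with encapsome. Encapsome A lay inside the clodrosome range, and the log2 fold change was 0.22 ± 0.0938 (SE).

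Car4 stood apart from the endothelial genes in size. This enzyme is anchored in the outer membrane of capillary endothelium, where it interconverts carbon dioxide and bicarbonate, and in mouse lung it marks a class of capillary cells. The gene (chromosome 11, 84957786 to 84966044, plus strand) stood at 117, 127 and 128 CPM in clodrosome libraries A, B and C, against 23.7, 37.8 and 29.7 CPM in encapsome libraries A, B and C. The lowest clodrosome library was about 3 times the highest encapsome library, and the log2 fold change was 2.02 ± 0.147 (SE), a 4.06-fold difference. On the lower and higher sides of the rRNA split it was 2.36 and 1.92, with a single encapsome and a single clodrosome library on those sides. Set against the geometric mean of the 9 endothelial genes within each library, Car4 TPM was 7.44, 7.46 and 7.23 times that mean in clodrosome libraries A, B and C, against 1.94, 2.66 and 2.28 times in encapsome libraries A, B and C. The clodrosome ratios were nearly equal and those of encapsome lower throughout.

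**Figure D2:**
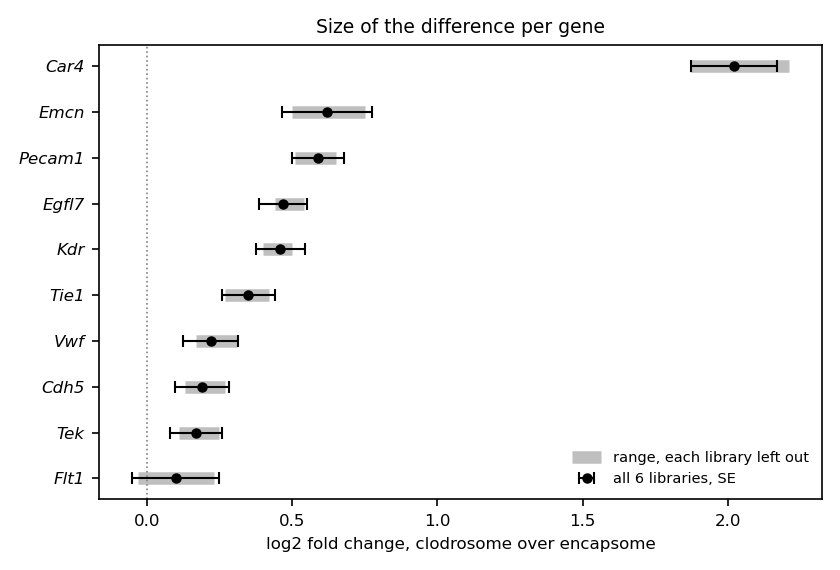
Log2 fold change of each gene, clodrosome over encapsome, with its SE (points and bars) and the range when each library is left out in turn (grey). Car4 lies at 2.02, the 9 endothelial genes lie between 0.10 and 0.62, and the grey range of Flt1 crosses 0.

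**Figure D3:**
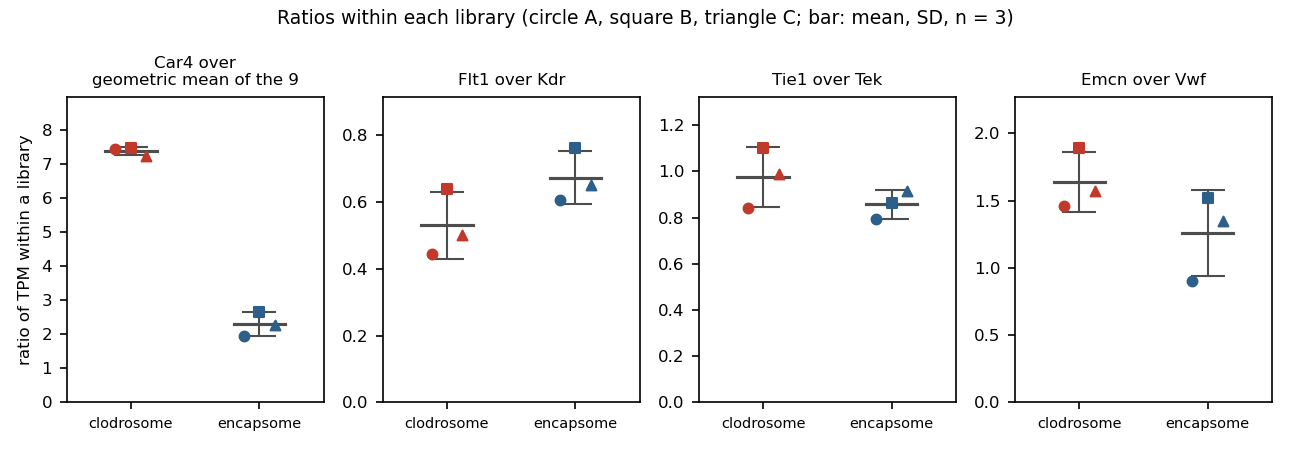
Ratios of TPM within each library (linear axes from 0), with mean and SD of the 3 libraries of a group. The ratio of Car4 to the geometric mean of the 9 endothelial genes separates the groups, while the 3 ratios between endothelial genes overlap.

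On the TPM scale the order of the endothelial genes was nearly the same in both groups. In clodrosome skin Car4 led at 169 ± 8.32 TPM, followed by Pecam1 at 111 ± 10.4 and Cdh5 at 64.3 ± 6.29 TPM (SD, n = 3 each). In encapsome skin Pecam1 led at 71.2 ± 6.11 TPM, followed by Cdh5 at 54.4 ± 4.85 and Car4 at 40.3 ± 9.02 TPM (SD, n = 3 each). The level of Car4 thus exceeded 95.5% of tested genes in clodrosome skin and 80.5% in encapsome skin. Tek, Tie1, Egfl7 and Emcn followed in that order in both groups, from 29.3 down to 17.5 TPM with clodrosome and from 25.2 down to 11 TPM with encapsome. Flt1 was lowest, at 5.96 ± 0.647 TPM with clodrosome and 5.40 ± 0.896 TPM with encapsome (SD, n = 3 each). The neighbours Tek and Tie1, and Kdr and Vwf, overlapped in clodrosome skin, and so did Emcn and Vwf, and Vwf and Kdr, in encapsome skin. All other neighbours in the order were apart in their group. The long exonic union of Flt1 (13504 bases) and Vwf (16064 bases) in the annotation lowers their TPM where only shorter transcripts are made.

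Within a group, most genes deviated together, with Vwf and Tek apart from the rest. Deviations of log2 CPM from the group mean had a median correlation of 0.46 over the 36 pairs of endothelial genes, and 28 pairs were positive. Flt1 and Emcn were closest at 1.0, then Kdr and Pecam1 at 0.95. Vwf ran between -0.53 and 0.07 against the other 8 genes. Car4 correlated at 0.70 to 0.89 with Kdr, Flt1, Tie1, Pecam1, Cdh5, Emcn and Egfl7, at 0.13 with Tek and at -0.53 with Vwf. These values describe 6 libraries that share depth and RNA quality between genes, and 2 of the 6 degrees of freedom went to the group means. Flt1 and Emcn were both lowest in library A and highest in library B of each group, and the libraries of lowest and highest value lie on opposite sides of the rRNA split; the part of RNA quality in this was not tested.

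**Figure D4:**
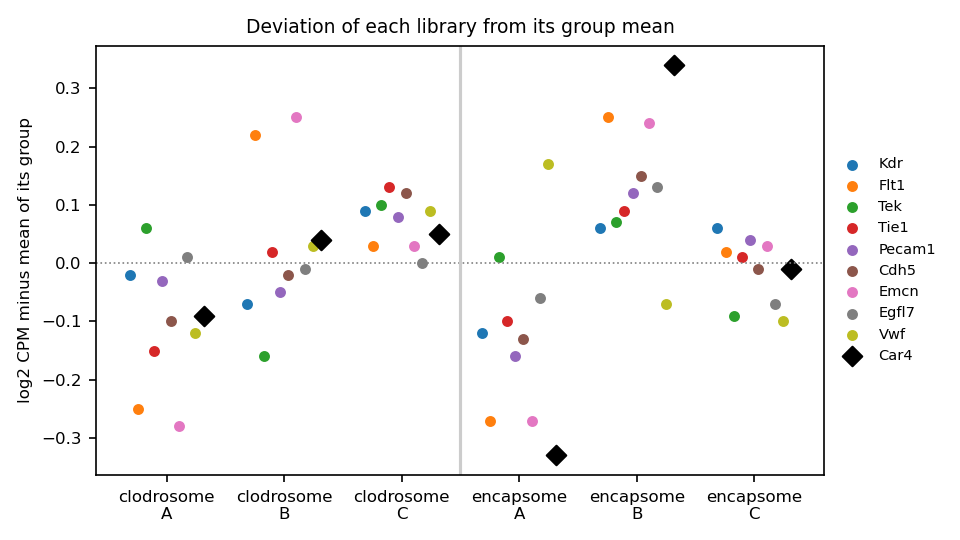
Log2 CPM of each gene in each library minus the mean of its own group. Car4 (black diamonds) spans -0.09 to 0.05 in clodrosome skin and -0.33 to 0.34 in encapsome skin, and Vwf departs from the other genes in encapsome libraries A and B.

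The genes whose levels over the 6 libraries tracked Car4 most closely, of 13714 compared, were Igfbp7, Rnpc3, Recql4, Gpr182 and Meox1. Igfbp7, a secreted protein abundant in vessel walls, had a Pearson r of 0.9979 over the 6 libraries and averaged 262 ± 0.158 CPM with clodrosome and 179 ± 14.2 CPM with encapsome (SD, n = 3 each). Gpr182, a receptor of endothelial cells (r = 0.9965), averaged 8.92 ± 0.122 CPM with clodrosome and 5.16 ± 0.367 CPM with encapsome (SD, n = 3 each). The homeobox gene Meox1 had an r of 0.9961. Meox1 averaged 17.9 ± 1.93 CPM with clodrosome and 6.02 ± 0.941 CPM with encapsome (SD, n = 3 each). For Rnpc3 the r was 0.9967, and for the helicase Recql4 it was 0.9965. The mean profile of the 9 endothelial genes was most like those of Dohh, Txlng, Itgb6, Mterf3 and Heph, with r from 0.9909 to 0.9970. A Pearson r over 6 libraries in 2 groups is set largely by the group means.

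Other endothelial genes, not chosen as members, moved in both directions. Of 30 further pan-endothelial genes, all tested, 6 were called higher (9.41% of all genes were) and 2 lower (13.0% of all genes were), with a median log2 fold change of 0.24. Adgrf5, an adhesion receptor of microvessels, averaged 86.7 ± 11.5 CPM with clodrosome and 54.0 ± 2.29 CPM with encapsome (SD, n = 3 each), a rise of 0.68 on the log2 scale (edgeR FDR-adjusted p = 0.00154). Mmrn2, a vascular matrix protein, and Calcrl, the receptor subunit for adrenomedullin, rose by 0.56 and 0.47 (edgeR FDR-adjusted p = 0.00204 and 0.00330). Cd93, a lectin-like receptor of endothelial cells and myeloid cells, fell to 71.1 ± 5.17 CPM with clodrosome, against 129 ± 16.9 CPM with encapsome (SD, n = 3 each; log2 fold change -0.86; edgeR FDR-adjusted p = 5.57e-04). Fli1, an ETS factor of blood cells and endothelium named after its value was seen, was the other lower gene at -0.44 (edgeR FDR-adjusted p = 0.00651). Eng, Heg1, Ptprb, Sox18 and Cd34, also picked out afterwards, did not pass, at -0.27, -0.28, -0.05, 0.01 and -0.11. Erg, Myct1 and Cldn5, picked out in the same way, did not pass either, at 0.45, 0.44 and 0.37. In all, 21 of the 30 genes had a log2 fold change above 0. Without encapsome A, 4 genes of the list were called lower. All 6 macrophage genes examined fell, and their summed level was 1178, 491 and 973 CPM in clodrosome libraries A, B and C, against 3183, 2910 and 2656 CPM in encapsome libraries A, B and C; the part of fewer macrophages in the fall of Cd93 and Fli1 was not tested.

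Among 14 capillary genes other than Car4, all tested, 2 were higher (14.3%, against 9.41% of all genes) and 1 lower (7.14%, against 13.0%). Their median log2 fold change was 0.11. Cd300lg, the sialomucin nepmucin of capillaries, averaged 28.8 ± 4.02 CPM with clodrosome and 14.9 ± 2.39 CPM with encapsome (SD, n = 3 each), a rise of 0.95 on the log2 scale (edgeR FDR-adjusted p = 0.00154). Plvap, which forms the diaphragms of fenestrated capillaries, rose by 0.40 (edgeR FDR-adjusted p = 0.0116). Cd36, a fatty acid transporter of capillaries that adipocytes and macrophages also make, changed by -0.49 (edgeR FDR-adjusted p = 0.0493), and its call was lost without clodrosome A or C (edgeR FDR-adjusted p = 0.129 and 0.122) and without encapsome A or C (edgeR FDR-adjusted p = 0.157 for each). The capillary genes Gpihbp1, Aqp1, Fabp4, Meox2 and Btnl9, named after their values were seen, gave 0.32, -0.07, 0.12, 0.10 and 0.08, and none passed. Skeletal muscle, whose capillaries also carry carbonic anhydrase 4, moved with the groups. Its 10 marker genes summed to 5318, 4816 and 6579 CPM in clodrosome libraries A, B and C, against 3422, 3470 and 4080 CPM in encapsome libraries A, B and C. Of these 10, 7 were called higher, but 2 without clodrosome C, 3 without encapsome A and 2 without encapsome B. Their median log2 fold change was 0.56, and their part in the higher Car4 was not tested.

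Most arterial and venous genes did not pass. Over all tested genes 9.41% were called higher and 13.0% lower, to be set beside the shares of each list. Of 12 arterial genes 4 were called higher (33.3%) and 0 lower, with a median of 0.21. Edn1, the vasoconstrictor endothelin that keratinocytes make too, averaged 19.4 ± 1.94 CPM with clodrosome and 7.44 ± 1.37 CPM with encapsome (SD, n = 3 each), a rise of 1.38 on the log2 scale (edgeR FDR-adjusted p = 3.37e-04). The notch ligand Dll4 and the ephrin Efnb2, both of arterial cells, rose by 0.65 and 0.30, and the kinase Bmx by 0.52 (edgeR FDR-adjusted p = 0.0153, 0.0137 and 0.0413). The call of Efnb2 was lost without encapsome B or C (edgeR FDR-adjusted p = 0.0592 and 0.0585), that of Dll4 without clodrosome A, encapsome A or encapsome C (edgeR FDR-adjusted p from 0.0509 to 0.0636), and that of Bmx without any 1 library except clodrosome C (edgeR FDR-adjusted p from 0.0774 to 0.116). The arterial count was 2 without clodrosome A, encapsome A or encapsome B and 1 without encapsome C. Of 11 venous and venular genes 4 were higher (36.4%) and 1 lower (9.09%), with a median of 0.26. The adhesion genes Selp and Sele, which capture leukocytes, and the chemokine-binding receptor Ackr1 rose by 2.56, 1.18 and 0.69 (edgeR FDR-adjusted p = 1.33e-04, 0.00135 and 0.00316). The venular protease gene Tll1, picked out with its value known, rose by 0.58 (edgeR FDR-adjusted p = 0.0118; 0.0520 without encapsome C), and the interleukin-1 receptor Il1r1 fell by 0.77 on the log2 scale (edgeR FDR-adjusted p = 0.00297). A log2 fold change above 0 was seen for 9 of the 11 venous and venular genes. The part of other skin cells in the fall of Il1r1 was not tested. Exons of other genes cover 25.7% of the exonic bases of Ackr1 and 14.1% of those of Selp, and reads there were not counted.

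Further genes of the VEGF and angiopoietin pathways were examined: ligands, co-receptors and the related lymphatic receptor Flt4. Of these 11 genes 6 were lower (54.5%, against 13.0% of all genes) and 2 higher (18.2%, against 9.41%), with a median of -0.38. Among the ligands, Vegfa, which binds KDR and FLT1, and Angpt1, which binds TIE2, did not pass. Vegfb and Angpt2 did, the first lower and the second higher. Genes of fibroblasts and macrophages fell beside the 6 lower genes. The collagen gene Col1a1 and the matrix gene Dcn changed by -1.90 and -1.25 and the macrophage gene Mrc1 by -1.97 (edgeR FDR-adjusted p = 1.63e-04, 0.00169 and 0.00166). The part of those cells in the lower calls was not tested. Vegfd, a ligand of the lymphatic VEGF receptor, averaged 15.7 ± 2.69 CPM with clodrosome and 31.5 ± 0.734 CPM with encapsome (SD, n = 3 each; log2 fold change -1.0; edgeR FDR-adjusted p = 6.15e-04). Angptl1, an angiopoietin-like secreted protein, averaged 1.73 ± 0.769 CPM with clodrosome and 7.07 ± 1.38 CPM with encapsome (SD, n = 3 each; log2 fold change -1.99; edgeR FDR-adjusted p = 0.00190). Nrp1, a co-receptor for VEGF that macrophages and fibroblasts also carry, averaged 42.0 ± 14.1 CPM with clodrosome and 92.3 ± 9.58 CPM with encapsome (SD, n = 3 each; log2 fold change -1.13; edgeR FDR-adjusted p = 0.00524). Vegfb, Vegfc and Nrp2, named after their values were seen, fell by 0.57, 0.84 and 0.38 on the log2 scale (edgeR FDR-adjusted p = 0.00841, 0.0182 and 0.00633), with the call of Vegfc lost without clodrosome C or encapsome B (edgeR FDR-adjusted p = 0.0519 and 0.0786). Angpt2, the angiopoietin that endothelial cells release on activation, averaged 28.4 ± 2.89 CPM with clodrosome and 15.9 ± 1.81 CPM with encapsome (SD, n = 3 each), a rise of 0.83 on the log2 scale (edgeR FDR-adjusted p = 0.00106). Flt4, also named afterwards, rose by 0.55 (edgeR FDR-adjusted p = 0.0359), a call lost without encapsome A, B or C (edgeR FDR-adjusted p = 0.104, 0.0801 and 0.104), which left 1 higher call. Vegfa averaged 57.7 CPM with clodrosome and 56.7 CPM with encapsome, a log2 fold change of 0.03 ± 0.0726 (SE; edgeR FDR-adjusted p = 0.830). Angpt1 gave -0.04 ± 0.105 (SE; edgeR FDR-adjusted p = 0.820). Both of these were picked out after their values were seen.

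**Figure D5:**
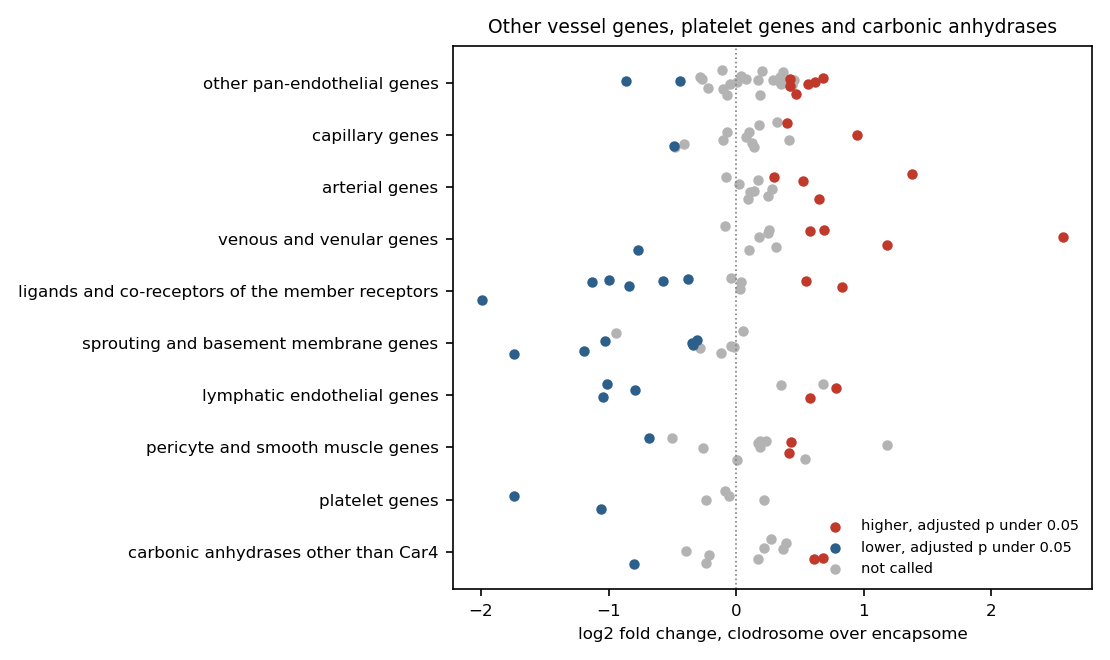
Log2 fold change, clodrosome over encapsome, of each tested gene of 10 further lists, coloured by the edgeR call. The list of ligands and co-receptors, which also holds Flt4, and the sprouting and basement membrane genes lie mostly below 0, with 6 lower calls each, while the arterial list has 4 higher calls and 0 lower.

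Sprouting and basement membrane genes were lower where they passed: 6 of 12 fell (50.0%, against 13.0% of all genes) and 0 rose (against 9.41%). The median was -0.32. Nid2, a linker of vascular basement membranes, averaged 22 ± 1.48 CPM with clodrosome and 50.4 ± 2.11 CPM with encapsome (SD, n = 3 each), a fall of 1.19 on the log2 scale (edgeR FDR-adjusted p = 7.04e-05). Apln, the peptide apelin that tip cells of sprouts release, averaged 2.71 ± 0.353 CPM with clodrosome and 8.92 ± 2.65 CPM with encapsome (SD, n = 3 each), a fall of 1.74 (edgeR FDR-adjusted p = 7.67e-04). The matrix protease Mmp14 fell by 1.03 (edgeR FDR-adjusted p = 9.72e-05). The type IV collagen gene Col4a2 fell by 0.31 (edgeR FDR-adjusted p = 0.0192), a call lost without clodrosome A or C and without encapsome B or C (edgeR FDR-adjusted p from 0.0556 to 0.0859). The list had 3 lower calls without clodrosome A, without clodrosome C or without encapsome B. Fibroblasts make several of these genes, and their collagen genes Col1a1 and Col1a2 averaged 219 ± 46.5 and 316 ± 76.1 CPM with clodrosome, against 816 ± 146 and 966 ± 169 CPM with encapsome (SD, n = 3 each; log2 fold change -1.90 and -1.61; edgeR FDR-adjusted p = 1.63e-04 and 4.16e-04); the part of fibroblasts was not tested.

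Neighbouring cell types gave mixed counts, beside 9.41% of all tested genes called higher and 13.0% lower. Of 7 lymphatic endothelial genes tested of 8, 2 rose (Mmrn1 by 0.78 and Reln by 0.58; edgeR FDR-adjusted p = 0.00178 and 0.00454) and 3 fell, among them Itga9 and Pdpn at -1.04 and -1.01 (edgeR FDR-adjusted p = 0.00147 and 2.29e-04); Lyve1, shared with macrophages and named after its value was seen, fell by 0.79. Prox1, the regulator of lymphatic identity, and Foxc2, both also named afterwards, gave 0.35 and 0.68 and did not pass (edgeR FDR-adjusted p = 0.104 and 0.0510). In all, 4 of the 7 tested lymphatic genes had a log2 fold change above 0. The part of other skin cells in the falls of Itga9, Pdpn and Lyve1 was not tested. Of 12 pericyte and smooth muscle genes 2 rose, Mcam by 0.43 and Acta2 by 0.41 (edgeR FDR-adjusted p = 0.0102 and 0.0264). The receptor gene Pdgfrb was the 1 gene called lower, by 0.68 (edgeR FDR-adjusted p = 5.75e-04). A log2 fold change above 0 was seen for 9 of the 12. Among them were Rgs5, Abcc9 and Kcnj8, named after their values were seen, at 0.23, 0.54 and 0.19, none of them called. The part of fibroblasts, whose collagen gene Col1a1 changed by -1.90, in the fall of Pdgfrb was not tested. The call of Acta2 was lost without clodrosome A or C and without encapsome A or C (edgeR FDR-adjusted p from 0.0667 to 0.116). The higher calls were 1 without clodrosome A, clodrosome C, encapsome A or encapsome C, and 4 without clodrosome B.

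Platelets, red cells and leukocytes could add RNA of some members. The counts below stand beside 9.41% of all tested genes called higher and 13.0% lower. Of 12 platelet genes 6 passed the filter and 2 were lower, Pf4 at -1.74 (edgeR FDR-adjusted p = 0.00119) and Ppbp at -1.06 (edgeR FDR-adjusted p = 0.0369), with Ppbp lost, and 1 lower call left, without clodrosome A or encapsome A, B or C (edgeR FDR-adjusted p from 0.0578 to 0.132). Macrophages are also known to make Pf4. The other 4 tested platelet genes did not pass: Itga2b, an integrin of platelets and their precursors, averaged 7.42 ± 0.834 CPM with clodrosome and 8.75 ± 1.16 CPM with encapsome (SD, n = 3 each; log2 fold change -0.24), and Gp1ba, Gp5 and Clec1b gave -0.09, 0.22 and -0.06. Of the untested platelet genes, Gp9, Gp1bb, Gp6, Treml1 and Tubb1 averaged at most 0.203 CPM with clodrosome and 0.154 CPM with encapsome. The limit set by a count of 0 was 0.0502 to 0.228 CPM per library, and Gp1bb lay below it in every library. Exons of other genes cover 92.9% of the exonic bases of Gp1bb, and reads there were not counted, so its counts cannot show whether it is expressed. All of these uncalled platelet genes were named after their values were seen. The summed platelet list was 60.6 to 133 CPM with clodrosome, against 261 to 329 CPM with encapsome, and was made up mostly of Pf4 (71.4 ± 26.3 CPM with clodrosome and 239 ± 26.2 CPM with encapsome; SD, n = 3 each). Globin and other red cell genes were lower in 4 of 5 tested cases, with near-identical globin copies that make single values uncertain; the count was 0 without any 1 of the clodrosome libraries and 1 without encapsome B. Neutrophil genes were higher in 2 of 10 tested cases, Retnlg by 2.07 and Ly6g by 1.59 (edgeR FDR-adjusted p = 3.66e-04 and 0.0128). The other 8 did not pass, and only 5 of the 10 had a log2 fold change above 0. Ly6g averaged 1.07 ± 0.205 CPM with clodrosome and 0.346 ± 0.122 CPM with encapsome (SD, n = 3 each), the latter near the limit set by a count of 0. Its call was lost without encapsome B (edgeR FDR-adjusted p = 0.0572). The neutrophil list summed to 1473 to 2075 CPM with clodrosome and 1074 to 1725 CPM with encapsome. Adipocyte genes were lower in 4 of 8 cases, and Pck1 changed most of the named ones at -1.54 (edgeR FDR-adjusted p = 0.00145). The part of these cells in the levels of the 10 genes was not tested.

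Car4 was compared with the rest of its enzyme family. Of 15 other carbonic anhydrases 11 were tested, 2 were higher (18.2%, against 9.41% of all genes) and 1 lower (9.09%, against 13.0%). Their median was 0.22. Car12, a membrane enzyme of epithelia, averaged 210 ± 12 CPM with clodrosome and 131 ± 8.15 CPM with encapsome (SD, n = 3 each), a rise of 0.68 on the log2 scale (edgeR FDR-adjusted p = 4.89e-04). Car2, a cytosolic enzyme, rose by 0.61 (edgeR FDR-adjusted p = 0.00108). Car9, a target of the hypoxia response, fell by 0.80 (edgeR FDR-adjusted p = 0.0169), a call lost without encapsome A (edgeR FDR-adjusted p = 0.0570), and the lower calls were 0 without encapsome A and 2 without clodrosome C. Car3, an enzyme of muscle and fat, named after its value was seen, averaged 742 CPM with clodrosome and 969 CPM with encapsome and did not pass (log2 fold change -0.39, edgeR FDR-adjusted p = 0.112).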

How the data were processed

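Polyadenylated RNA of whole dorsal skin was sequenced as stranded paired-end libraries, 3 with DPCP and clodrosome and 3 with DPCP and encapsome, per the labels' protocols. Raw counts by gene were deposited; the command kept in the file names featureCounts 1.6.2 and an Ensembl GRCm38 annotation, per the file headers. Trimmomatic 0.36, HISAT2 2.2.1, StringTie 2.2.1, DESeq2 1.34.0 and the mm10 build are named in the submitters' processing notes. The command sets no option for pairs, strand or shared reads, so strand is ignored, reads over several genes are left out, and each end can count: 63.6% to 69.7% of counts from 1 to 20 were even. The limit for a count of 0 is 3 fragments, taken as 6 counts (counting error only). Columns were matched to groups by name, and 0 further columns hold sample values.

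CPM (scaled to the counts in tested genes) and TPM were computed here. Symbols were found for 99.4% of identifiers. Tests used edgeR 4.0.16 in R 4.3.3 (glmQLFit, glmQLFTest, TMM, filterByExpr with minimum count 10 and total 15, Benjamini-Hochberg over 17988 genes, threshold 0.05); SE is the fold change over the square root of F. Libraries within a group differed by a chi-square of 9.93 to 53.0 a gene, so none looked deposited under 2 names. On simulated counts of 17755 genes at this design, 195 were changed by 1 on the log2 scale. Of these 95.4% were recovered, with 4.12% false calls. In the data 4035 of 17988 genes were called, a far larger share than was changed in the simulation. The simulated rates therefore need not hold for the fit of the data. Smaller changes were not simulated, so recovery at the size of most genes here is not known. Alternatives were DESeq2 1.42.0, other scalings, no filter, leaving out each library, thinning clodrosome A, the rRNA split and a block by column number. Members and lists were chosen with earlier results of these data known. Genes named are the 10 members, up to 4 called genes of smallest p per list, 3 macrophage genes, and the 5 genes closest to each profile by Pearson r of log2 CPM (prior count 2, mean of at least 1 CPM); others are marked as named after their values were seen. Promoter and microRNA sequences are from RefSeq tables for GRCm38.p6.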

Additional observations from a re-analysis of the deposited data

How the results depend on the processing

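Under the other scalings, DESeq2, no low-count filter, thinning and the rRNA split as a term, the log2 fold change of each of the 10 genes stayed within 1 SD of the main value. Leaving out each library gave 1.87 to 2.21 for Car4 and -0.03 to 0.23 for Flt1. Among the libraries of lower rRNA share the difference was 0.62 for Kdr, 0.78 for Pecam1, 0.34 for Cdh5, 0.04 for Vwf and 2.36 for Car4. Among those of higher share it was 0.33 for Kdr, 0.01 for Tek and 0.46 for Pecam1. Each side holds 3 libraries, with encapsome A alone of its group on the lower side and clodrosome B alone on the higher side. The cause was not tested. That split and the thinning were chosen after seeing the data. Genes called higher over all tested genes ranged from 821 to 1964 with each library left out. By list and in the same way, lower calls ranged from 2 to 4 (pan-endothelial), 0 to 1 (capillary) and 3 to 6 (sprouting), and higher calls from 1 to 4 (arterial) and 1 to 2 (ligands and co-receptors). The pan-endothelial list had 13 higher and 4 lower calls with no low-count filter, 4 lower by DESeq2 and 11 higher with the rRNA split as a term. The capillary list had 0 lower with upper quartile factors or the rRNA split, and the venous list 7 higher with no low-count filter; the cause was not tested. The pericyte list had 4 higher (2 in the main analysis) and the adipocyte list 1 higher (0) with no low-count filter. Platelet lower calls were 1 by DESeq2 (2), and those of the other carbonic anhydrases 2 by DESeq2, with no filter or with the rRNA split (1). Red cell lower calls were 0 by DESeq2 or with the rRNA split (4), and neutrophil higher calls 4 by DESeq2, with no filter or with the rRNA split (2). Skin genes had 2 higher with upper quartile factors, DESeq2 or no filter (1). Of the 67 genes that the naming rule picks, 18 lost their call without 1 library and 0 reversed; of called genes named outside it, Esam, Tll1, Vegfc and Flt4 lost theirs without 1 library. The replicate numbers of the titles could not be matched to columns. The column names carry other numbers, of which 2 and 4 occur in both groups, and nothing states that they mark pairs; libraries that share one had deviations correlated at -0.04 and -0.05 over 17988 genes. With that number as a replicate block, chosen after seeing the data and with 1 residual degree of freedom, 1859 genes were called higher and 2434 lower, the pan-endothelial list had 4 lower, the venous list 2 lower and the ligand list 1 higher, and Emcn gave 0.36 and Flt1 -0.15. Under the block the pericyte list had 4 higher, the skin list 2 higher, the neutrophil list 4 lower and the other carbonic anhydrases 0 lower. Depth is counted per read end, so counts overstate independent fragments.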

Other observations

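Ramp2, Robo4 and Esam, named after their values were seen, were the remaining 3 of the 6 pan-endothelial genes already counted as higher, in a list of which 22 of 30 genes did not pass. Ramp2, which pairs with the adrenomedullin receptor subunit Calcrl, averaged 28.1 ± 1.98 CPM with clodrosome and 21.1 ± 0.367 CPM with encapsome (SD, n = 3 each; edgeR FDR-adjusted p = 0.00775), with 33.4% of its exonic bases covered by exons of other genes. The guidance receptor Robo4 averaged 15.2 ± 0.546 CPM with clodrosome and 9.86 ± 1.32 CPM with encapsome (SD, n = 3 each; edgeR FDR-adjusted p = 0.00611). Esam, a junction protein of endothelium and platelets, averaged 35 ± 2.5 CPM with clodrosome and 26.1 ± 4.28 CPM with encapsome (SD, n = 3 each; edgeR FDR-adjusted p = 0.0350), a call lost without clodrosome A or C and without encapsome A or B (edgeR FDR-adjusted p from 0.0592 to 0.123).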
